A study of Mus musculus with 68 samples.

Results

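Oestrogen receptor alpha (ERα) was targeted for removal from the cells of the mouse uterus that express the progesterone receptor. This ERaUtcKO uterus lacked most of the gene response that littermates had 2 h after an injection of 17β-oestradiol (E2). The loss was measured as an interaction, the E2 response of ERaUtcKO uterus minus that of wild-type littermate uterus, for 30142 genes. Its size came from 12 of the 68 arrays of the series, 3 in each of 4 groups. ERaUtcKO mice are labelled Esr1f/f;PgrCre+, so Esr1, the gene of ERα, is floxed and is cut out where Cre from the Pgr gene is active. Cells of the uterus without Pgr activity are not targeted. The littermates are labelled wild type, the labels do not say whether they carry the floxed allele, and no group with Cre alone was analysed here. Effects of Cre and of ERα loss therefore cannot be told apart for any gene. All mice were ovariectomized and are labelled C57Bl6. E2 was given into the peritoneum as 250 ng in 100 µl of saline and tissue was taken after 2 h. Vehicle mice received 100 µl of saline and their tissue was taken at 24 h, in both genotypes, so each response also spans a difference in time since injection. The labels do not give ages or say that the 3 arrays of a group come from separate mice. The p-values therefore measure the spread between samples, which was estimated over all 29 arrays of the ERaUtcKO experiment.

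ERα is a nuclear receptor that binds E2 and then acts at DNA as a transcription factor. In the uterus it drives the early wave of E2 action, with fluid uptake, blood vessel permeability and immediate-early genes, and then growth of the epithelium. Some of the growth signals pass between cells, for example as insulin-like growth factor 1 (IGF1) made in the stroma. ERaUtcKO tissue keeps ERα in any cell that has not expressed Cre. Because whole uterus was measured, fewer cells of a type and less RNA per cell cannot be told apart.

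Values are log2 intensities as deposited, and differences are on that log2 scale with their standard error (SE). A gene is said to have risen or fallen, or a difference to be called, only at an adjusted p below 0.05 in limma (two-sided, over all 30142 genes). An interaction below 0 means that the change after E2 was less positive, or more negative, in ERaUtcKO than in littermates. The median of the genes ran from 6.63 to 6.80 over the 12 arrays, and control probe sets that match no mouse sequence had medians from 3.60 to 3.66. Arrays of a group correlated at 0.992 to 0.996 over genes. On the component that held 54.1% of the variance the littermate E2 arrays lay between 62.6 and 74.7. The other 9 arrays lay between -35.4 and -9.69, with replicate 1 of the ERaUtcKO E2 group the highest of them. Littermate vehicle replicate 3 (16.0) lay apart from the other littermate vehicle arrays (37.2 and 42.6) on the next component, which held 14% of the variance.

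Esr1 itself was lower in ERaUtcKO but far from absent. Its levels were 12.17, 12.25 and 12.24 in littermate vehicle arrays and 11.09, 11.10 and 10.86 in ERaUtcKO vehicle arrays. After E2 they were 11.86, 11.66 and 11.89 in littermates and 10.72, 10.58 and 10.42 in ERaUtcKO. The genotypes did not overlap under either treatment, and the difference under vehicle was -1.21 (adjusted p = 3.66e-07, limma). Where the Esr1 probe set lies relative to the deleted part is not known here. The Esr1 interaction was -0.02 ± 0.15 (SE, adjusted p = 0.955), and its sign changed with scaling. Esr2, the gene of oestrogen receptor beta, stayed between 4.72 and 5.06 on every array, below the 5.32 to 6.22 that marked the 95th percentile of the control probe sets.

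The interaction was called for 4154 of the 30142 genes (13.8%), of which 2134 lay below 0 (7.08%) and 2020 above (6.7%). The split moved with scaling: centring each array on its median gave 2707 below and 1270 above, and moved the median interaction of all genes from 0.07 to -0.04. At 2-fold or more the interaction was called below 0 for 761 genes (2.52%) and above 0 for 424 (1.41%). In littermates 9666 genes responded to E2 (32.1%), with 4090 rising (13.6%) and 5576 falling (18.5%). Of these, 1042 rose 2-fold or more (3.46%) and 639 fell that far (2.12%). In ERaUtcKO only 148 genes responded (0.491%). There 120 rose (0.398%), 30 of them 2-fold or more (0.0995%), and 28 fell (0.0929%), none of them 2-fold.

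The number of responding genes in ERaUtcKO was the least steady of these counts. It fell to between 49 and 95 when any 1 of the 6 ERaUtcKO arrays was left out, and 47 to 86 of those genes were among the 148. It was 49 without vehicle replicate 1, 65 without vehicle replicate 2 and 95 without vehicle replicate 3. Leaving out E2 replicate 1 gave 53, replicate 2 gave 78 and replicate 3 gave 95. A fit to the 12 arrays alone gave 51.

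For most genes with a lost response of 2-fold or more, a genotype difference was called after E2 and not under vehicle. The interaction that chose these genes is the genotype difference after E2 minus that under vehicle. The split therefore only describes the chosen genes, and an uncalled difference under vehicle does not show equal starting levels. For the 761 genes below 0, a genotype difference was called after E2 alone in 681 cases, at both in 56, under vehicle alone in 13 and at neither in 11. For the 424 genes above 0 the counts were 334, 63, 15 and 12. Over all genes, the genotypes differed under vehicle for 1258 (4.17%) and after E2 for 8166 (27.1%).

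A set of E2 genes chosen on other arrays gave the same picture. In the 6 C57Bl6 wild-type arrays of vehicle and E2 at 2 h, 949 genes rose 2-fold or more (3.15%) and 736 fell that far (2.44%). For the 949, the median change was 1.49 in those arrays, 1.33 in the littermates and 0.19 in ERaUtcKO, which is 14.25% of the littermate median. By array, that median was 1.43, 1.30 and 1.26 in littermates and 0.27, 0.18 and 0.14 in ERaUtcKO. For the 736, the median was -1.33 in C57Bl6, -1.05 in littermates and -0.16 in ERaUtcKO, and by array -1.10, -1.08 and -0.99 against -0.24, -0.09 and -0.17. The 3 ERaUtcKO arrays lay apart from the 3 littermate arrays for both sets, and on the same side of 0. Over all genes the medians were -0.10 in littermates and -0.02 in ERaUtcKO. The interaction was called against the response for 819 of the 949 and 500 of the 736, while ERaUtcKO itself was called in the C57Bl6 direction for 62 and 7.

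**Figure D1:**
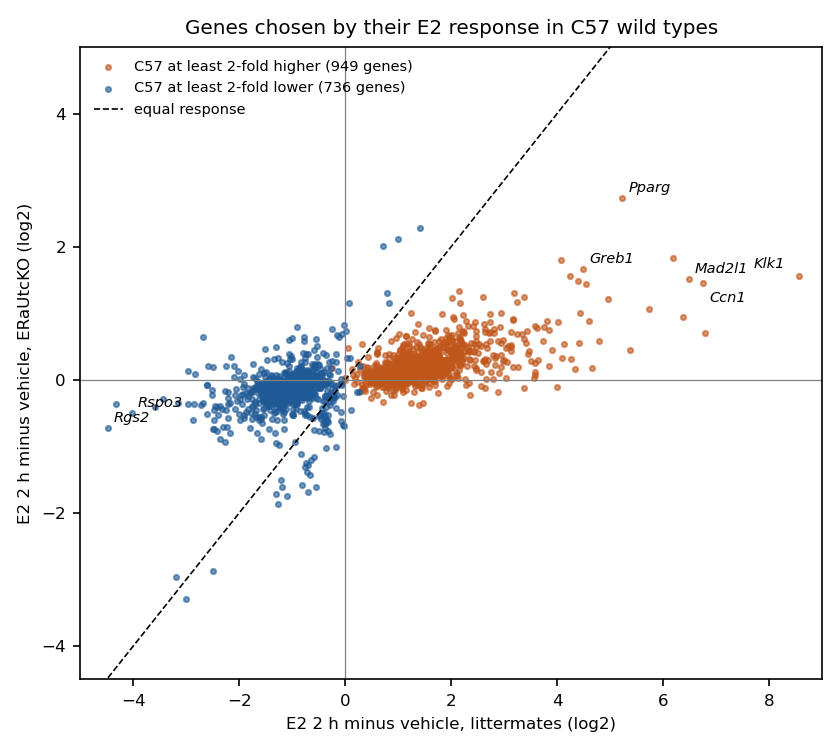
Each point is a gene that changed 2-fold or more 2 h after E2 in C57 wild types, 949 higher (orange) and 736 lower (blue). The horizontal axis is its E2 response in littermates and the vertical axis that in ERaUtcKO, both log2 differences from vehicle, with a dashed line at equal response. Most points lie close to 0 on the vertical axis, with Greb1, Pparg, Mad2l1 and Klk1 among those that keep part of the rise.

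The most negative interaction among genes that rose in littermates was that of Klk1, a tissue kallikrein protease. Where a starting level lies near the 5.32 to 6.22 of the control probe sets, as for Klk1, Klk1b5, Fos, Adamts4 and Lif, the low side is not clearly above background and the size of the difference is only approximate. It read 5.68, 6.23 and 6.61 in littermate vehicle arrays and 15.37, 15.01 and 13.85 after E2, against a vehicle mean of 5.94 ± 0.06 (SD, n = 3) and then 7.56, 7.43 and 7.51 in ERaUtcKO. The interaction was -7.01 ± 0.48 (adjusted p = 9.19e-10, limma), and a rise of 1.56 remained in ERaUtcKO (adjusted p = 0.0366), where vehicle and E2 arrays did not overlap. Klk1b5, its paralogue on chromosome 7, had an interaction of -6.09 ± 0.28, but kallikrein genes are near copies, so the signals of single members are uncertain. Pgf, placental growth factor and a relative of VEGF, went from between 6.16 and 6.50 to between 12.60 and 12.92 in littermates, and from between 6.07 and 6.45 to 7.58, 6.97 and 7.17 in ERaUtcKO. Its interaction was -5.45 ± 0.23 (adjusted p = 1.21e-13).

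Mad2l1, a spindle checkpoint gene, rose from 8.85, 9.12 and 9.56 to 15.47, 15.70 and 15.81 in littermates. In ERaUtcKO it rose from 8.62, 8.68 and 8.82 to 10.61, 9.90 and 10.14, a called change of 1.51, and the interaction was -4.97 ± 0.33 (adjusted p = 4.34e-10). All 3 ERaUtcKO E2 arrays lay above every vehicle array and below every littermate E2 array. Gadd45g, a growth arrest and stress gene, rose by 5.37 in littermates and had an uncalled difference of 0.45 in ERaUtcKO (adjusted p = 0.452). Rasd1, a small G protein, had a littermate rise of 5.73 and an uncalled ERaUtcKO difference of 1.06 (adjusted p = 0.0963). B4galt5, a galactosyltransferase of glycolipid synthesis, kept a called rise of 1.83 beside 6.19 in littermates. Ccn1, a matrix protein of the CCN family, spread most: its littermate E2 arrays read 16.10, 13.74 and 14.71, its interaction was -5.30 ± 0.71, and its ERaUtcKO difference of 1.46 was not called (adjusted p = 0.308).

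**Figure D2:**
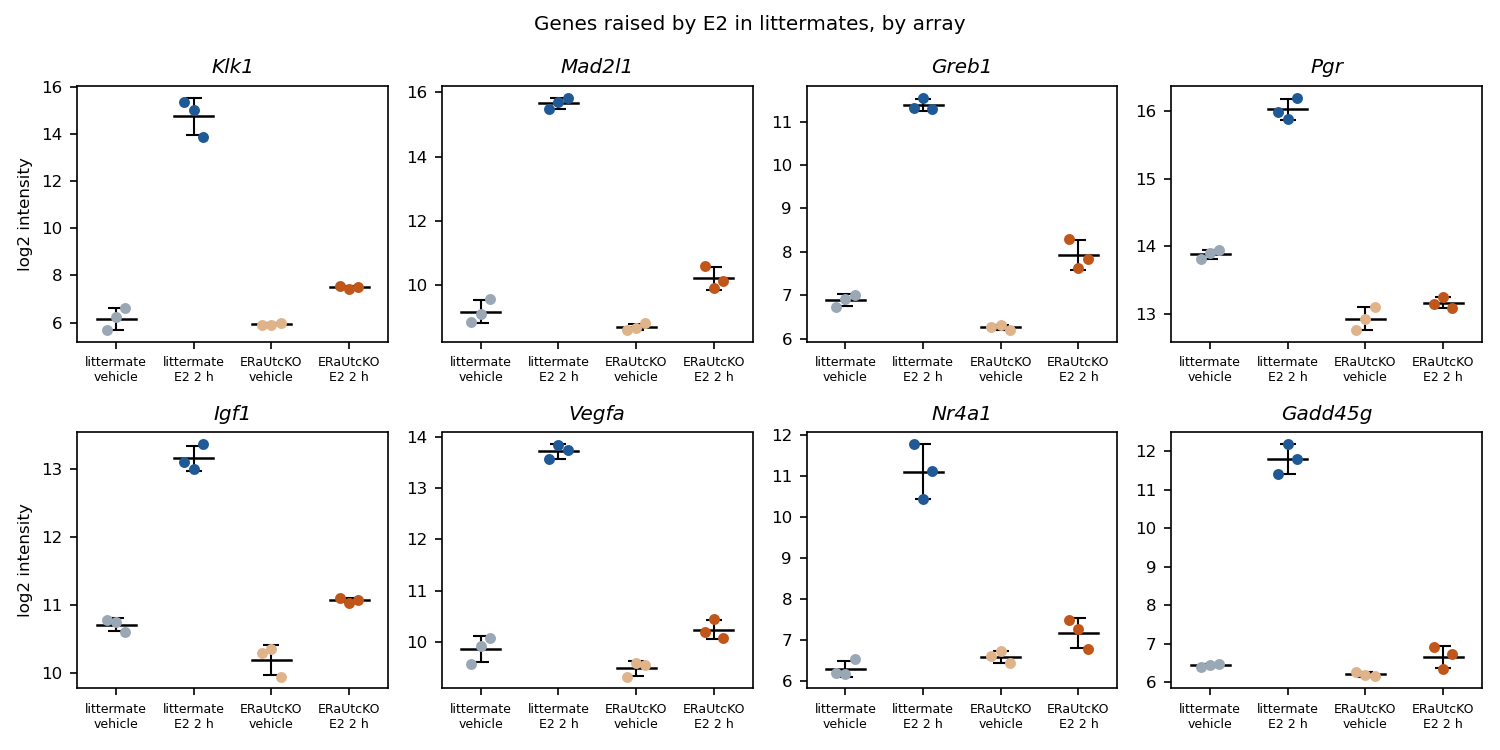
Log2 intensity of 8 genes in each array of the 4 groups; points are arrays, the horizontal line is the group mean and the bar its SD (n = 3). In each panel the littermate E2 arrays stand above all others. In every panel but Pgr the ERaUtcKO E2 arrays also stand above the ERaUtcKO vehicle arrays, though that difference was not called for Igf1, Nr4a1 and Gadd45g.

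Several regulators and cofactors of ERα and its partner receptors lost a rise, some only in part. Of 13 measured genes of this list, 6 had an interaction below 0 and 0 above. Greb1, a direct ERα target and cofactor, rose from 6.74, 6.92 and 7.01 to 11.32, 11.55 and 11.28 in littermates. In ERaUtcKO it rose from 6.28, 6.31 and 6.20 to 8.30, 7.64 and 7.84, so all groups were separate, with a change of 1.66 (adjusted p = 3.23e-08, limma) beside 4.49 and an interaction of -2.83 ± 0.17 (adjusted p = 9.39e-11). Nrip1, a corepressor of nuclear receptors, rose by 3.58 and by 0.81, both called (interaction -2.78 ± 0.15). Pgr, the progesterone receptor gene whose promoter drives Cre here, read 13.81, 13.90 and 13.94 and then 15.99, 15.89 and 16.20 in littermates. In ERaUtcKO it read 12.76, 12.92 and 13.10 and then 13.14, 13.25 and 13.09, which overlap. Its interaction was -1.92 ± 0.24 (adjusted p = 7.01e-06), and it was already lower under vehicle by 0.95 (vehicle difference -0.95, adjusted p = 0.00179). With no group of Cre alone, an effect of Cre at the Pgr gene and of ERα loss cannot be told apart for Pgr. Rara, Xbp1 and Ncoa1 made up the 6, with interactions of -1.04, -0.78 and -0.44.

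A list of 20 early E2-responsive uterine genes had 17 interactions below 0 and 1 above, with a median of -2.68 against 0.07 over all genes. Its members were picked as E2-responsive, with earlier results of these data known, so the lean below 0 was largely set by that choice. In littermates 18 rose and 1 fell, while 7 rose in ERaUtcKO. The exceptions without a called interaction were Hpgds, a prostaglandin D synthase (-0.78), and Stc2, a stanniocalcin (-0.08). Igf1 rose from 10.78, 10.76 and 10.60 to 13.10, 13.01 and 13.37 in littermates. In ERaUtcKO its vehicle arrays read 10.30, 10.35 and 9.95 and its E2 arrays 11.10, 11.04 and 11.08, which did not overlap, though the change of 0.87 was not called (adjusted p = 0.0587). The interaction of Igf1 was -1.57 ± 0.29 (adjusted p = 0.000476). Inhbb, a subunit of activin, kept 1.33 of 2.15, and its interaction of -0.82 was called.

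Blood vessel genes lost more rises than falls. Of 26 genes of vascular growth and permeability, 9 had an interaction below 0 and 2 above, and 11 rose and 5 fell in littermates. Over all genes 7.08% of interactions were called below 0 and 6.7% above, so the 2 above 0 were near that share. Vegfa, the main vascular permeability factor, rose from 9.58, 9.93 and 10.08 to 13.56, 13.84 and 13.74 in littermates and from 9.33, 9.59 and 9.56 to 10.20, 10.45 and 10.08 in ERaUtcKO. Both rises were called, 3.85 and 0.75, and the interaction was -3.10 ± 0.19 (adjusted p = 8.31e-11). The vasodilator peptide gene Adm and Ramp3, a subunit of its receptor, rose by 2.85 and 2.57 in littermates and had uncalled ERaUtcKO differences of 0.36 and -0.10. Hif1a, an oxygen-sensing factor, kept a called rise of 0.55 of 1.56. Above 0 were Calcrl, the receptor partner of the RAMPs (0.74 ± 0.16), and the lymphatic growth factor gene Vegfd (1.13 ± 0.36), which both fell in littermates. The call for Vegfd was lost after centring (adjusted p = 0.0604), which left 1 gene of the list above 0, and in 9 of the 12 fits without 1 array.

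Immediate-early transcription factor genes, which signalling pathways switch on without new protein synthesis, lost nearly all of their rise. Of 24 measured, 22 rose in littermates and 1 in ERaUtcKO, and 18 had an interaction below 0 and 0 above (median -1.43). Nr4a1, an orphan nuclear receptor, read 6.20, 6.18 and 6.53 and then 11.77, 10.43 and 11.11 in littermates. In ERaUtcKO it read 6.61, 6.73 and 6.44 and then 7.48, 7.26 and 6.78. Those ERaUtcKO groups did not overlap, but the difference of 0.58 was not called (adjusted p = 0.762, limma), and the interaction was -4.22 ± 0.56. Fos rose from between 5.62 and 5.79 to 9.82, 9.10 and 8.89 in littermates, while all 6 ERaUtcKO arrays lay between 5.40 and 5.75. The 1 gene with a called rise in ERaUtcKO was Klf4, a Krüppel-like factor (0.73 beside 2.46). Klf2, Ier5, Fosl1 and Klf10 rose in littermates without a called interaction.

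Ligands and brakes of the EGF receptor and ERK pathway followed. Hbegf, which encodes a membrane ligand of the EGF receptor, rose by 3.56 in littermates, and its ERaUtcKO arrays overlapped at 7.20 to 7.31 under vehicle and 7.19 to 7.37 after E2 (interaction -3.53 ± 0.26). The neuregulin genes Nrg1 and Nrg2 and the receptor gene Egfr had interactions of -1.31, -1.22 and -0.53, while Btc, another EGF family ligand, had 0.60 ± 0.18. With the mean of its probe sets in place of the highest, Nrg1 had -0.68 and was not called (adjusted p = 0.0722, limma). The call for Btc was lost after centring (adjusted p = 0.0552), which left 0 genes of the list above 0, and in 6 of the 12 fits without 1 array. Among 14 ERK feedback inhibitors 6 were below 0 and 1 above, the latter near the 6.7% called above 0 over all genes. Spry4 rose from between 6.50 and 6.59 to 10.54 ± 0.58 (SD, n = 3) in littermates and lay between 6.57 and 6.89 on all ERaUtcKO arrays (interaction -4.11 ± 0.34). Errfi1, an inhibitor of the EGF receptor, rose by 4.01, with an uncalled ERaUtcKO difference of 0.87 (adjusted p = 0.101). Dusp1, an ERK and p38 phosphatase, kept a called 0.88 of 2.27. Spred1 alone was above 0 (0.54 ± 0.13), having fallen in littermates.

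Some genes of protein synthesis, protein folding and cholesterol synthesis also lost a rise, and none of the 4 lists had an interaction above 0. Of 21 ribosome biogenesis genes 19 rose in littermates and 0 in ERaUtcKO, with 10 interactions below 0. Ddx21, a nucleolar helicase, rose by 2.92 (interaction -2.12 ± 0.27), and its ERaUtcKO difference of 0.80 had an adjusted p of 0.0734. Of 10 heat-shock genes 6 were below 0, and 4 rose in ERaUtcKO under the deposited scale (3 after centring, 2 after quantile normalization). Hsph1, a chaperone of the HSP110 family, rose by 2.94 and by 1.00, and Hspa4 by 1.46 and 0.44. Of 19 genes of ATF4 targets and amino acid transport 6 were below 0, among them Slc7a5, a large neutral amino acid transporter, which kept a called 1.44 of 4.55. Atf4 itself rose by 1.90, with 0.15 in ERaUtcKO. Of 14 cholesterol synthesis genes 7 rose in littermates, 0 in ERaUtcKO and 3 had an interaction below 0, led by Fdft1, squalene synthase (-1.23 ± 0.24).

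Cell cycle genes had calls on both sides. Of 24 measured, 3 had an interaction below 0 (Mad2l1, Cdkn1a and Myc) and 5 above. Cdkn1a, the inhibitor p21, rose from 9.23, 9.08 and 8.84 to 13.47, 13.40 and 13.03 in littermates and from 8.38, 8.35 and 8.04 to 10.47, 9.46 and 9.53 in ERaUtcKO, where replicate 1 stood highest. The change of 1.56 was called there (adjusted p = 0.0294, limma), and the interaction was -2.69 ± 0.47. The 5 above 0 were Rb1, Mxi1, Cdkn1b, Mxd4 and Rbl2, all of which restrain growth or MYC. Each fell in littermates, Rb1, the retinoblastoma gene, by 2.58 and Cdkn1b, the inhibitor p27, by 1.62, and none was called in ERaUtcKO.

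The largest lost fall was that of Rgs2, a brake of G protein signalling. It read 14.57, 14.28 and 14.55 under vehicle and 9.93, 10.04 and 9.97 after E2 in littermates, and 14.85, 15.02 and 15.28 and then 14.40, 14.21 and 14.35 in ERaUtcKO. The ERaUtcKO groups did not overlap, but their difference of -0.73 was not called (adjusted p = 0.107), and the interaction was 3.76 ± 0.27 (adjusted p = 2.02e-09, limma). Rspo3, a secreted enhancer of WNT signalling, fell from 15.38, 15.13 and 15.38 to 11.42, 10.52 and 11.86 in littermates, while ERaUtcKO arrays read 15.93, 15.73 and 15.55 and then 15.42, 15.08 and 15.19 (interaction 3.52 ± 0.34). Sox4, a transcription factor, fell by 3.44 in littermates and started lower in ERaUtcKO, by -1.23 under vehicle (adjusted p = 0.000843). Its ERaUtcKO arrays lay between 13.33 and 13.99 throughout, above the littermate E2 arrays at 11.36, 11.37 and 11.82.

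Several of the lost falls came with a different starting level. Ptch1, the Hedgehog receptor and target, was lower under vehicle in ERaUtcKO (-1.08, adjusted p = 0.0264), fell by 2.98 in littermates, and read 10.91, 11.72 and 11.01 after E2 in ERaUtcKO against 11.08 ± 0.09 (SD, n = 3) under vehicle (interaction 3.11 ± 0.39). Cldn1, a tight junction protein, was also lower under vehicle (-1.08, adjusted p = 0.0495). Rbm24, an RNA-binding protein, was higher (1.45, adjusted p = 4.94e-05), fell by 3.16 in littermates and had an uncalled difference of -0.35 in ERaUtcKO. Lratd1 had an interaction of 2.70 ± 0.35 with no called difference under vehicle (adjusted p = 0.29).

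FOXO target genes, whose activating FOXO factors are shut out of the nucleus by insulin and IGF1 signalling, included several lost falls. Of 22 measured, 13 fell and 4 rose in littermates, 1 fell in ERaUtcKO, and the interaction was above 0 for 12 and below for 3 (median 0.52; 10 and 3 after centring). Sesn1, a stress-induced inhibitor of mTORC1, fell from 11.99, 11.81 and 12.34 to 9.04, 9.13 and 9.44 in littermates. In ERaUtcKO it read 12.31, 12.61 and 12.45 and then 12.92, 12.49 and 12.22, which overlap (interaction 2.93 ± 0.32, adjusted p = 8.89e-07, limma). Txnip, a thioredoxin-binding protein that limits glucose uptake, fell by 2.58 in littermates to between 13.38 and 14.27, and all 6 ERaUtcKO arrays lay between 16.26 and 17.29. Irs2, which couples the insulin receptor family to PI3 kinase, fell by 2.61 to between 8.91 and 9.15 in littermates and lay between 10.97 and 11.68 in ERaUtcKO. Sesn3 was the member that fell in ERaUtcKO, by 0.77 beside 2.42 in littermates (ERaUtcKO -0.77, littermates -2.42). The 3 below 0, Pdk4 (-1.75 ± 0.50), Gadd45a (-1.38 ± 0.17) and Bcl6 (-1.22), rose in littermates.

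**Figure D3:**
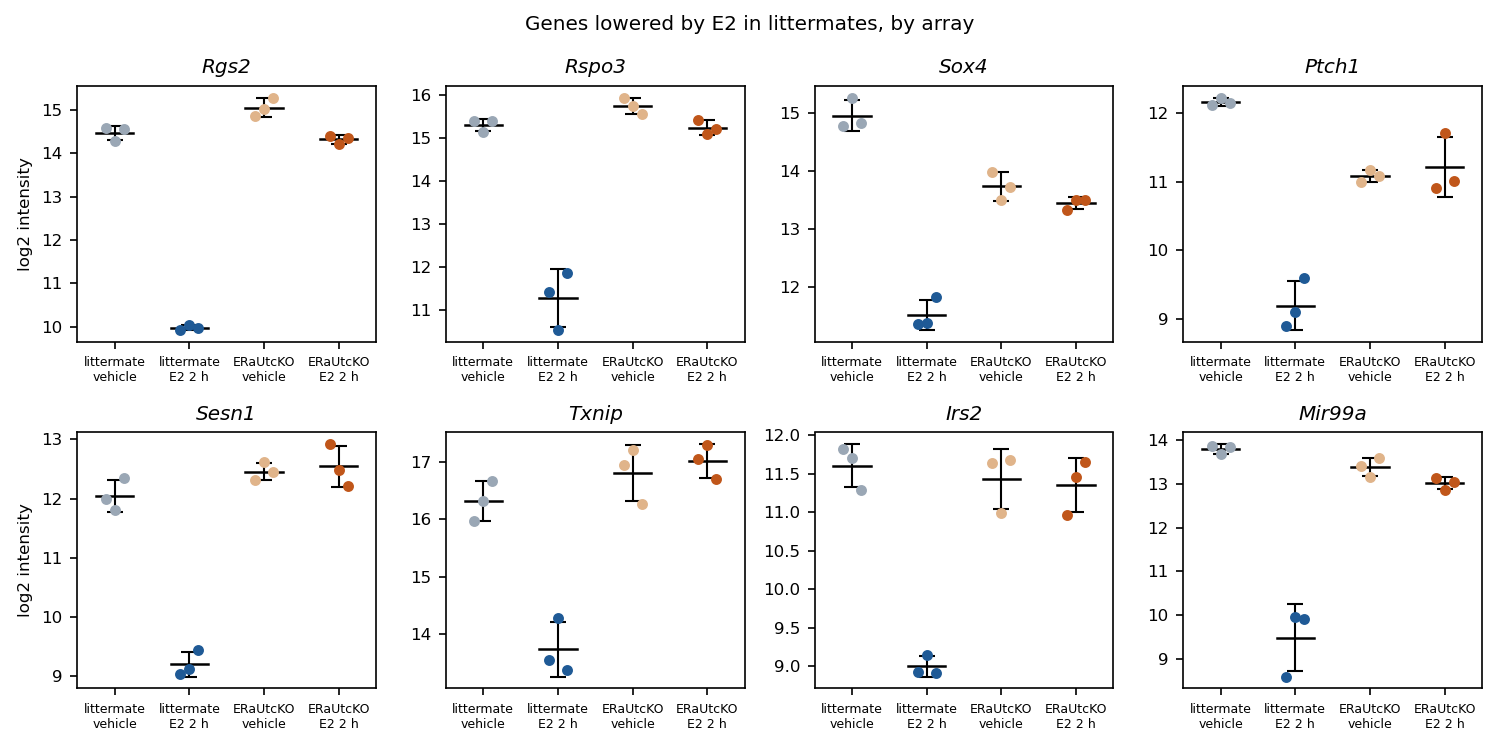
Log2 intensity of 8 genes that fell after E2 in littermates, in each array of the 4 groups; points are arrays, the horizontal line is the group mean and the bar its SD (n = 3). The littermate E2 arrays stand below all others in each panel, and the ERaUtcKO E2 arrays stay near their vehicle arrays.

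In the list of the IGF and insulin axis, 2 interactions were above 0 (Irs2 and Stc1) and 1 below (Igf1) among 18 measured, close to the 13.8% called over all genes. Igf1r, the IGF1 receptor, had an interaction of 0.13 ± 0.20 (adjusted p = 0.744). Stc1, a stanniocalcin, read 10.22, 10.57 and 11.14 and then 8.76, 7.73 and 7.98 in littermates, and 12.83, 13.05 and 13.25 and then 11.45, 12.91 and 12.53 in ERaUtcKO, with an interaction of 1.74 ± 0.56 (adjusted p = 0.0394). That call was lost when arrays were centred (adjusted p = 0.0598) and in 8 of the 12 fits that left out 1 array.

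MicroRNAs are small RNAs that repress messenger RNAs through their seed, bases 2 to 8. Of 600 measured miRNA precursor genes, 26 had an interaction above 0 and 15 below, smaller shares than the 6.7% and 7.08% of all genes, and 13 and 11 of these reached 2-fold. The largest lost rise was that of Mir143, which read 8.40, 9.33 and 9.53 and then 11.03, 12.92 and 12.40 in littermates. In ERaUtcKO it read 10.29, 10.63 and 8.95 and then 10.56, 9.91 and 9.49, which overlap (interaction -2.998 ± 0.73, adjusted p = 0.00594, limma). The genes described here, and the host gene, were chosen after their values were seen. A cluster on chromosome 16 holds Mir99a, Mirlet7c-1 and Mir125b-2 within the host gene Mir99ahg, and miR-10b, from Mir10b on chromosome 2, shares the start of the miR-99a seed. Their mature 5p forms are shown because their precursors fell together in littermates; capitals mark the seed (RefSeq, GRCm38.p6).
miR-99a-5p: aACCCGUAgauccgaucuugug
miR-10b-5p: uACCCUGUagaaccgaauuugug
let-7c-5p: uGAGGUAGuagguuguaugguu
miR-125b-5p: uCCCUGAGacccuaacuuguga
Mature miR-99a-5p lies at chr16:77598940-77598961, let-7c-5p at chr16:77599672-77599693, miR-125b-5p at chr16:77646279-77646300 and miR-10b-5p at chr2:74726074-74726096, all on the plus strand.

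Mir99a read 13.88, 13.68 and 13.86 under vehicle and 8.59, 9.96 and 9.91 after E2 in littermates, and 13.41, 13.17 and 13.59 and then 13.14, 12.87 and 13.04 in ERaUtcKO. Its interaction was 3.95 ± 0.37 (adjusted p = 9.21e-08, limma). Mirlet7c-1 fell by 2.86 in littermates (interaction 2.49 ± 0.56), Mir125b-2 by 1.52 (1.19 ± 0.29) and Mir10b by 2.98 (2.61 ± 0.47), and none was called in ERaUtcKO. After E2 the littermate arrays of Mirlet7c-1 (5.02 to 5.71) and Mir125b-2 (5.70 to 6.25) were near the level of the control probe sets. Mir99ahg fell from between 9.55 and 9.56 to 7.75, 8.08 and 8.24 in littermates and from between 9.52 and 9.72 to 9.13, 9.32 and 9.47 in ERaUtcKO (interaction adjusted p = 8.53e-06). The array read total RNA, and precursor, host and mature RNA cannot be told apart at these probe sets.

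WNT signalling genes fell more than they rose in littermates, 12 against 2 of 28, and had 5 interactions above 0 and 2 below. Over all genes 18.5% fell and 13.6% rose in littermates, and 6.7% of interactions were called above 0 and 7.08% below. The 2 of 28 below 0 were thus near the share over all genes. Besides Rspo3 those above 0 were Nkd2, Sfrp4, Znrf3 and Fzd1, which are inhibitors or receptors of the pathway, with interactions from 0.79 to 1.03. The 2 below 0 were Axin2, a feedback target of WNT signalling (-1.64 ± 0.24), and Wnt4, a ligand needed for decidualization (-0.87 ± 0.13). Wnt4 rose from 7.44, 7.48 and 7.59 to 8.41, 8.65 and 8.60 in littermates, and its ERaUtcKO arrays overlapped at 7.18 to 7.41 and 7.31 to 7.56.

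Genes of stromal regulation had calls on both sides. Of 20 genes of the progesterone pathway and stroma, 6 interactions were above 0 and 4 below. Above 0 were Ptch1, the nuclear receptor gene Nr2f2 (2.29 ± 0.21), Hoxa11 (1.44), Sox17 (1.04), Hoxa10 (0.96) and Hand2 (0.86), all of which fell in littermates and were not called in ERaUtcKO. Nr2f2, also named COUP-TFII, read 12.32, 11.94 and 11.96 and then 9.35, 9.43 and 9.86 in littermates and lay between 11.79 and 12.27 in ERaUtcKO. Below 0 were Errfi1, Pgr, Wnt4 and Fkbp4, a cochaperone of the progesterone receptor (-1.36). The separate list of 12 stromal markers, which shares Nr2f2, Hoxa10, Hoxa11 and Hand2 with the one above, had 10 members lower and 1 higher in littermates, 0 called in ERaUtcKO and 7 interactions above 0. Col3a1, a fibrillar collagen, fell by 1.74 (interaction 1.98 ± 0.52) and Col1a2 by 1.41 (1.48 ± 0.43).

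Signalling lists of mixed roles had calls on both sides of 0. Over all genes 7.08% were called below 0 and 6.7% above. The 2 SOX and KLF genes below 0 and the 1 Notch gene above 0 were not far from those shares. Among 22 genes of TGF-beta, activin and BMP signalling, Skil, a SMAD corepressor (-2.42 ± 0.20), Tgfb2 (-1.53 ± 0.27), Inhbb and Smad7 were below 0. Id2, an inhibitor of bHLH factors (2.31 ± 0.35), Tgif1 (1.42 ± 0.26) and Bambi (1.01) were above. Among 16 Notch genes the target genes Hey1 (-1.98 ± 0.35), Heyl (-1.35 ± 0.19) and Hes1 (-0.99) and the receptor gene Notch1 (-0.77) were below 0, and the ligand gene Jag1 was above (1.36 ± 0.18). Sox9 rose from between 6.64 and 7.03 to 9.55, 10.17 and 9.42 in littermates and lay between 6.46 and 6.96 in ERaUtcKO (interaction -3.06 ± 0.22). Sox9 and Klf4 were the 2 of 21 SOX and KLF genes below 0, and 4 were above, Klf11 (1.45 ± 0.24) among them, a balance that became 4 and 3 after centring. The 19 RGS and Ras-related genes had 4 on each side, with Rasd1 and Rnd1 (-2.40 ± 0.34) below and Rgs2 and Gem (1.38 ± 0.28) above.

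Prostaglandin genes had as many calls below as above 0. Of 15 measured, 3 were below 0, Ptges, the inducible prostaglandin E synthase (-2.39 ± 0.22), Ptgis and Ptges3, and 3 above, the breakdown enzyme gene Hpgd (2.27 ± 0.27) and the receptor genes Ptgfr (2.00 ± 0.18) and Ptger4 (1.28). Hpgd read 12.45, 12.49 and 12.55 and then 9.84, 9.22 and 9.80 in littermates, and in ERaUtcKO 12.15, 12.10 and 12.12 and then 11.62, 11.38 and 11.56. Those ERaUtcKO groups did not overlap, although the difference of -0.60 was not called (adjusted p = 0.233, limma). Among 25 cytokines and chemokines 3 were below 0 and 0 above, close to the 13.8% called over all genes in either direction. Ccl2, a monocyte chemokine, had -1.89 ± 0.49 and Cxcl16 -0.84. Lif, a cytokine needed for implantation, rose from 5.98, 6.08 and 5.64 to 7.59, 6.89 and 7.09 in littermates and averaged 5.92 ± 0.08 and 5.86 ± 0.11 (SD, n = 3) in ERaUtcKO (interaction -1.34 ± 0.20).

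Matrix genes had 7 interactions below 0 and 5 above among 24. Adamts4, a protease of proteoglycans, rose from 5.72, 5.73 and 5.92 to 10.56, 9.97 and 9.87 in littermates, while ERaUtcKO arrays stayed at 5.61 to 5.88 throughout (interaction -4.19 ± 0.18, adjusted p = 1.21e-13, limma). Adamts1 (-3.21) and Has1, a hyaluronan synthase (-1.44), were also below 0, and Lox, a collagen cross-linking enzyme (1.22), was above. Circadian clock genes had 5 below and 6 above among 17. Bhlhe40 (-1.95 ± 0.21) and Per2 (-1.53 ± 0.26) were below 0, and Bhlhe41 (2.10 ± 0.28) and Nr1d1 (1.88 ± 0.41), the latter already higher in ERaUtcKO under vehicle (1.11), were above. The clock list moves with the time of day, vehicle tissue was taken at another time after injection, and the labels give no hour of collection.

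**Figure D4:**
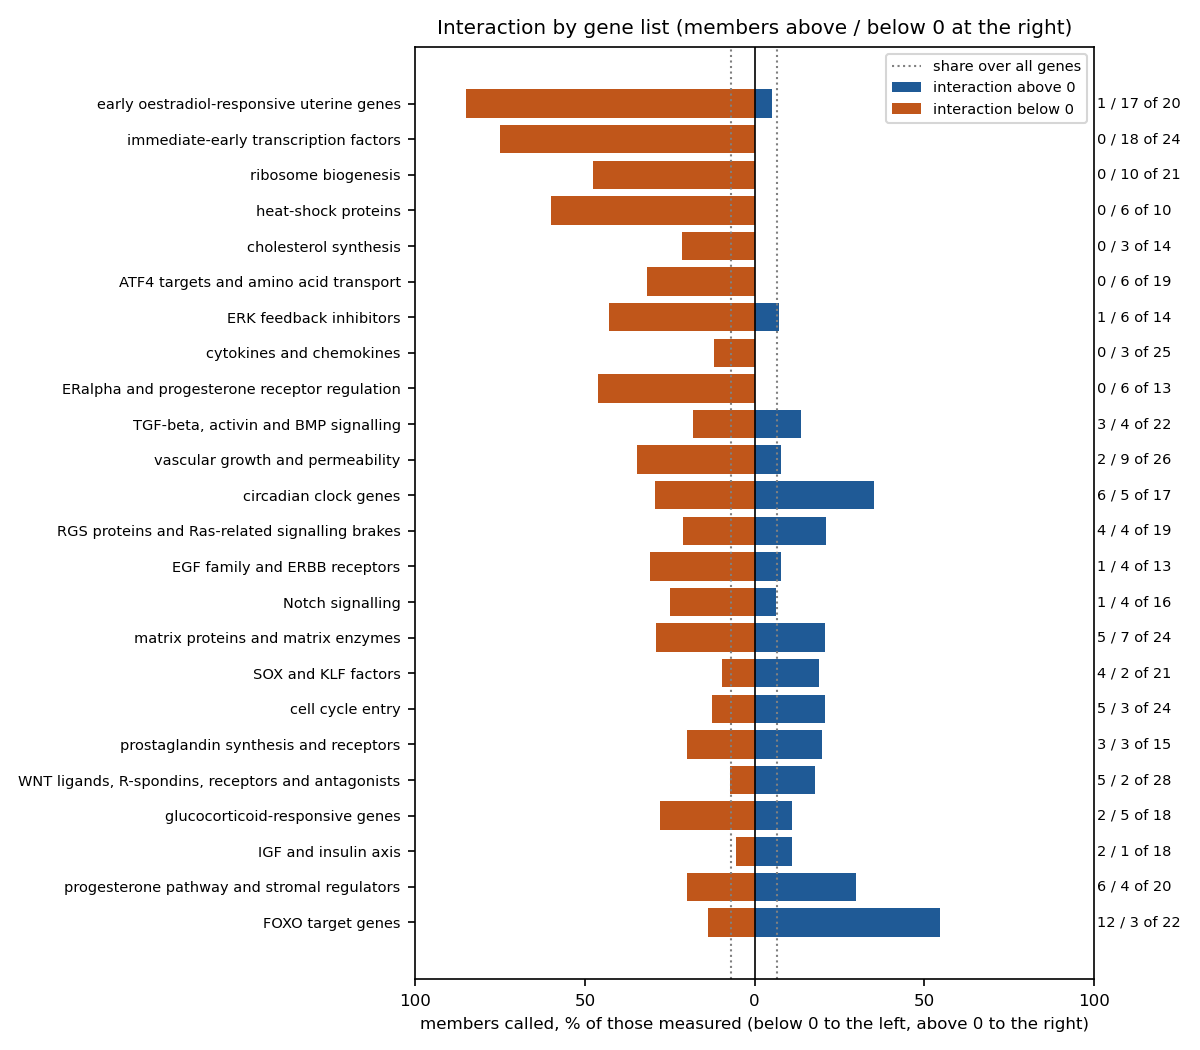
Share of the measured members of each of 24 pathway lists with a called interaction, below 0 to the left and above 0 to the right, ordered by the list's median interaction; dotted lines mark the shares over all 30142 genes (7.08% and 6.7%). Early E2-responsive and immediate-early genes lie far to the left and FOXO target genes to the right. All lists were written with earlier results of these data known, and the early E2-responsive list was picked for its response to E2. Lists share some genes, and the medians of the EGF, RGS, Notch and matrix lists are close to 0 and turn sign when arrays are centred.

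Promoter sequence was looked at for genes whose rise or fall was lost at 2-fold or more, in windows of 300 bases, 250 before to 50 after the annotated start (RefSeq, GRCm38.p6). Such windows were matched for 17970 measured genes, for 458 of the 760 with a lost rise and for 285 of the 418 with a lost fall. The cAMP response element TGACGTCA, the same on both strands, was in 5.02% of windows of lost rises, 2.11% of lost falls and 2.5% of all windows. The CArG box, the site of serum response factor, was in 3.49%, 1.4% and 1.7%. A FOXO motif, GTAAACA or ATAAACA on either strand, was in 5.24%, 8.77% and 8.11%. The AP-1 site TGANTCA was in 7.64%, 5.61% and 8.55%. The palindromic oestrogen response element was in 1 window of a lost rise, 0 of a lost fall and 11 of all. These shares are a description with no test, and a match is not a binding site.

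Stretches that end at the base before the start are shown for 2 lost rises, Plk2, a kinase (interaction -4.48 ± 0.37), and Errfi1. Capitals mark their cAMP response element. For 1 lost fall, Txnip, the stretch shown stops short of the start. Capitals mark its FOXO motif, whose first base lies 121 bases before the start. Each is on the plus strand of GRCm38.p6. They lie at chr13:110394902-110395043, chr4:150854939-150855069 and chr3:96557756-96557922.
Plk2: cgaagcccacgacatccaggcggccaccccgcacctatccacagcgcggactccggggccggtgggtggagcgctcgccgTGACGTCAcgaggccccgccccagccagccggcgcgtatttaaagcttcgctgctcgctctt
Errfi1: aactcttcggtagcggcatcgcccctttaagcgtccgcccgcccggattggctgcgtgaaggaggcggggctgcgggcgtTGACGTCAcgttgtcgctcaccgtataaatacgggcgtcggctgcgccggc
Txnip: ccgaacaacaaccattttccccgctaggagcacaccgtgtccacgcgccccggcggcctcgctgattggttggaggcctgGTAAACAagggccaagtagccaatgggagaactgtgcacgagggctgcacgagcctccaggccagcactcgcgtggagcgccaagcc
Plk2 read 9.29, 9.19 and 9.16 and then 13.21, 13.64 and 14.77 in littermates, and 8.47, 8.67 and 8.85 and then 9.15, 8.67 and 8.70 in ERaUtcKO, which overlap.

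A smaller part of the response was kept. Of the 120 genes that rose in ERaUtcKO, 93 also rose in littermates, 1 fell (Tsc22d3) and 26 were not called there, and 63 of the 93 rose less than in littermates by a called interaction. The median change of the 120 was 0.72 in ERaUtcKO and 1.32 in littermates. Of the 28 that fell, 20 also fell in littermates and 8 were not called there. Pparg, a nuclear receptor of lipid metabolism named after its values were seen, rose from 6.88, 6.84 and 7.19 to 12.57, 11.88 and 12.16 in littermates and from 6.62, 7.38 and 7.03 to 9.68, 9.12 and 10.42 in ERaUtcKO. Its interaction was -2.50 (adjusted p = 0.0149, limma). Pparg is also an adipocyte gene, and the 5 measured adipocyte markers had median differences after E2 of 0.91 in littermates and 1.62 in ERaUtcKO, with 0 called in either. Their part in the Pparg values was not tested.

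The interaction was called for 78 of the 120 genes that rose in ERaUtcKO and for 11 of the 28 that fell. For the rest the 2 responses could not be told apart, and some of those called in both genotypes are named here. Serpinb6b, a protease inhibitor, rose from 7.75, 7.58 and 8.15 to 9.43, 9.04 and 8.75 in littermates and from 7.64, 7.76 and 7.69 to 8.58, 8.70 and 8.83 in ERaUtcKO (1.25 and 1.01, interaction -0.24 ± 0.21, adjusted p = 0.544). Hdc, the histamine-forming enzyme, rose by 1.37 and 1.31 (interaction -0.06 ± 0.41) from a higher vehicle level in ERaUtcKO (1.14). In the C57Bl6 wild types Hdc did not rise (-0.83, adjusted p = 0.0545). Sulf2, an enzyme that trims heparan sulphate, rose by 1.21 and 0.94 from a lower vehicle level (-0.99). Kcnj2, a potassium channel, fell from 6.57, 6.66 and 6.80 to 5.43, 5.29 and 5.53 in littermates and from 6.47, 6.71 and 6.81 to 5.63, 5.70 and 5.72 in ERaUtcKO (interaction 0.28 ± 0.20). Its levels after E2 lay within or near the range of the control probe sets in both genotypes, so the size of either fall is limited from below and the 2 falls cannot be compared. Scnn1a, a sodium channel subunit, rose by 1.30 and 0.69, and its interaction of -0.61 ± 0.22 (adjusted p = 0.0677) was called after centring (-0.71, adjusted p = 0.0329). Cstad, Tcea3 and Mybpc1 fell in both genotypes, with interactions of 0.34, 0.52 and 0.20 that were not called. With 3 arrays a group these uncalled interactions do not show equal responses.

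Genes known to respond to glucocorticoids were the list with most calls in ERaUtcKO. Of 18 measured, 9 rose there (median 0.91) and 10 rose and 2 fell in littermates (median 0.65), with 5 interactions below 0 and 2 above. Zbtb16, a zinc finger factor, read 7.89, 7.34 and 7.56 and then 8.75, 8.29 and 8.70 in littermates. In ERaUtcKO it read 8.26, 8.31 and 8.28 and then 12.50, 12.25 and 11.06, the largest rise there (3.65, against 0.98; interaction 2.67 ± 0.38, adjusted p = 2.52e-05, limma). In the C57Bl6 wild types Zbtb16 fell (-0.55, adjusted p = 0.00663, limma), unlike in the littermates. Its interaction was also called in the Ex3aERKO line, labelled Esr1-null (3.30, adjusted p = 0.000333, limma). Fkbp5, a cochaperone of steroid receptors, rose by 0.70 and 1.03 and the metallothionein gene Mt2 by 0.91 and 1.23, neither with a called interaction. Saline-injected vehicle mice were sampled at 24 h, so the effect of a recent injection was not tested in either genotype.

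A few genes were called as changed in ERaUtcKO and not in littermates, or in the other direction there. This was not particular to ERaUtcKO for all of them. In Ex3aERKO the interaction was also called for Tsc22d3 (2.07), Nampt (1.44), Tnfrsf21 (1.56) and F2r (1.52), but not for Slc13a5, Zscan18 or Gabra4. In C57Bl6 wild types Tsc22d3 (-0.81), Slc13a5 (-0.63), F2r (-0.54), Tnfrsf21 (-0.78) and Gabra4 (-0.31) fell, and Nampt and Zscan18 were not called. Tsc22d3, a glucocorticoid-induced leucine zipper, read 7.93, 7.79 and 8.03 and then 7.30, 7.74 and 7.65 in littermates, and 8.26 ± 0.23 (SD, n = 3) and then 9.56, 9.29 and 9.22 in ERaUtcKO. It fell by 0.35 in littermates (-0.35) and rose by 1.09 in ERaUtcKO (interaction 1.44 ± 0.18, adjusted p = 5.91e-06, limma). Nampt, an enzyme of NAD synthesis, lay between 10.05 and 10.51 on all littermate arrays and rose from between 10.20 and 10.53 to 11.22 ± 0.19 (SD, n = 3) in ERaUtcKO (interaction 0.91 ± 0.17). Slc13a5, a citrate transporter, rose from 8.05, 8.48 and 9.06 to 9.33, 10.97 and 10.23 in ERaUtcKO, was higher there under vehicle (1.81), and lay between 6.43 and 6.87 in littermates (interaction 1.69 ± 0.46; adjusted p = 0.0506 without ERaUtcKO E2 replicate 2). F2r, a thrombin receptor, had 1.16 ± 0.28. Tnfrsf21 (0.73 ± 0.24) and Zscan18 (-0.41 ± 0.14) were close to the threshold and lost the call under several alternatives. Gabra4, a GABA receptor subunit, fell by 0.53 in ERaUtcKO (-0.53) to the level of the littermates (interaction -0.40 ± 0.11). Its littermate means of 6.15 under vehicle and 6.02 after E2 lay within the 5.32 to 6.22 of the control probe sets. A fall in littermates could therefore have been hidden.

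**Figure D5:**
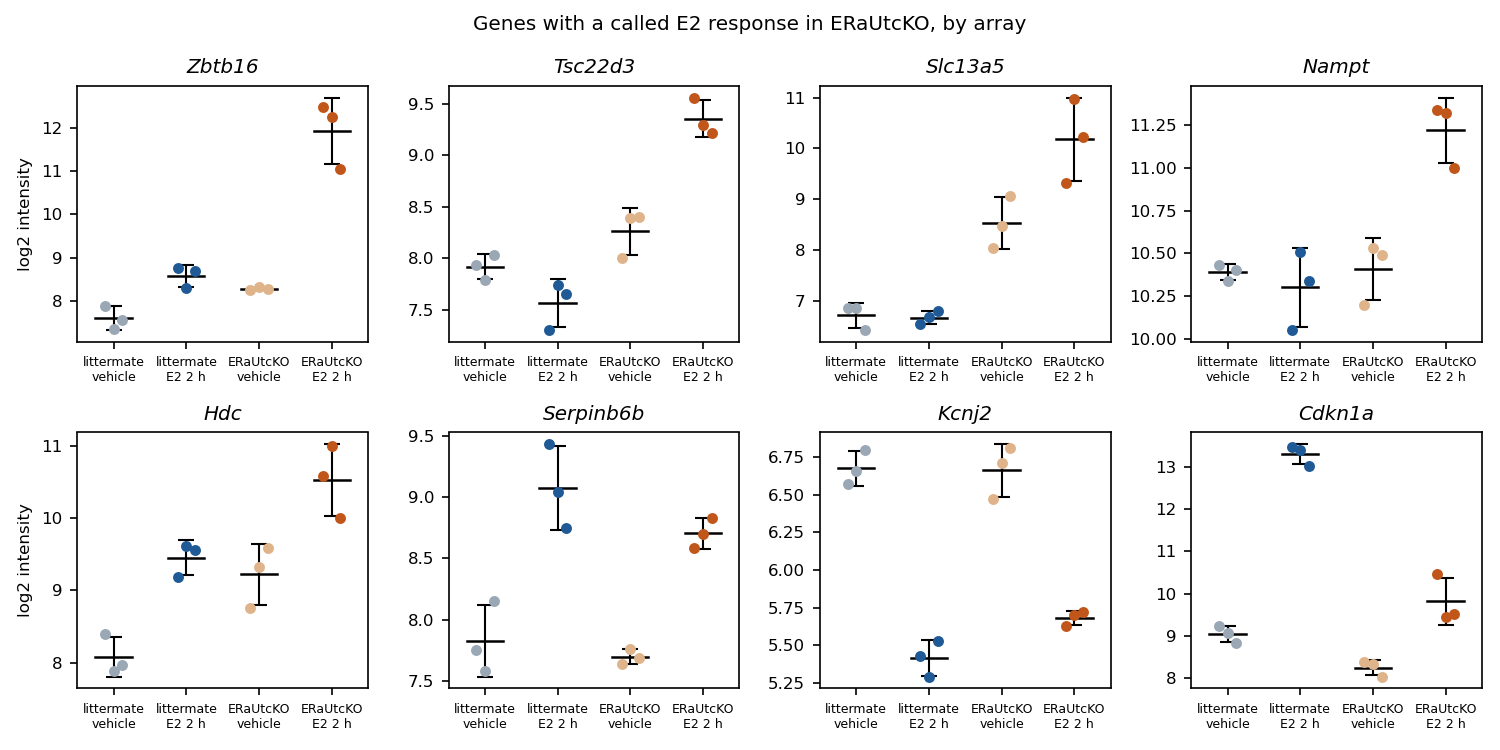
Log2 intensity of 8 genes with a called E2 response in ERaUtcKO, in each array of the 4 groups; points are arrays, the horizontal line is the group mean and the bar its SD (n = 3). Zbtb16, Tsc22d3, Slc13a5 and Nampt rise in ERaUtcKO more than in littermates, Hdc, Serpinb6b and Kcnj2 change in both genotypes with no called interaction, and Cdkn1a keeps part of its rise.

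A further 3 ERaUtcKO arrays were from uterus 2 h after IGF1. Set against the same 3 ERaUtcKO vehicle arrays, they differed in 8824 genes (29.3%), with 3936 higher (13.1%) and 4888 lower (16.2%). The comparison was added after the data were seen, the 2 responses share their vehicle arrays, and whether IGF1 was injected or given by pump is not given. Set beside each other, Nr4a1 differed from vehicle by 4.37 after IGF1 and 0.58 after E2, Spry4 by 4.66 and -0.11, Vegfa by 2.88 and 0.75, and Slc7a5 by 3.10 and 1.44. Falls were also measured, with -3.23 after IGF1 and -0.73 after E2 for Rgs2, -3.29 and 0.08 for Sesn1, and -2.98 and -0.51 for Rspo3. Greb1 (-0.0020 and 1.66), Klk1 (-0.24 and 1.56), Mad2l1 (-0.14 and 1.51) and Pgr (-0.61 and 0.23) had no positive value after IGF1. By list, 19 of 24 immediate-early genes rose after IGF1 in ERaUtcKO (median 1.31) and 1 after E2, while 15 of 22 FOXO targets fell and 1 did. Of 20 early E2-responsive genes 7 rose under each hormone, with medians of 0.20 after IGF1 and 0.60 after E2.

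Compared with the Ex3aERKO line, labelled Esr1-null, only 1 of 30142 genes had a different interaction (0.00332%; 2132, or 7.07%, at an unadjusted p under 0.05, limma). That gene was Greb1. In Ex3aERKO it read 5.53 and 5.57 under vehicle and 5.45 and 5.51 after E2, and in the littermates of that line 6.45 and 6.44 and then 11.29, 11.20 and 11.34. The interactions were -2.83 in ERaUtcKO and -4.90 in Ex3aERKO (difference 2.08 ± 0.28, adjusted p = 0.000211). Per the series description a group of 2 arrays had lost 1 as an outlier, the fit rested on few arrays, and the count became 4 without littermate E2 replicate 2 and 2 without ERaUtcKO E2 replicate 2. A p above the threshold does not show that the lines act alike.

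Markers of other cell types were read beside these results. Of 17 epithelial markers 2 had an interaction below 0 (Elf3, -1.54 ± 0.25, and Krt7) and 0 above, and Epcam lay between 11.17 and 11.79 on all 12 arrays. Of 12 smooth muscle markers 2 were below 0 (Cnn1 and Lmod1), of 11 endothelial markers 1 was above (Cldn5), and 1 of 7 mast cell markers (Kit, -1.44 ± 0.13) and 1 of 5 mesothelial markers (Wt1, -1.09 ± 0.18) were below. Over all genes 7.08% were called below 0 and 6.7% above, so counts of 1 or 2 in such short lists say little about a cell type. In the fit to the 12 arrays alone neither Cnn1 (adjusted p = 0.0605, limma) nor Lmod1 (0.0967) was called. None of 11 macrophage, 12 T and NK cell, 4 B cell, 10 neutrophil and eosinophil, 5 adipocyte or 6 liver markers had a called interaction. Some varied widely between arrays of a group: S100a8 from 8.51 to 12.15 in ERaUtcKO after E2, Adipoq from 8.51 to 13.11 in littermates after E2, and Alb from 10.99 to 15.27 in ERaUtcKO under vehicle. Their part in the results was not tested.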

How the data were processed

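The authors deposited 1 table of log2 intensities for 72688 probe sets of an Affymetrix whole-transcript mouse array on 68 samples; the summarisation and normalization are not given in the sources used here, and per the labels' protocols 300 ng of total RNA was amplified with a WT Plus kit. Probe sets with 1 gene symbol (30604) were reduced to 30142 genes by keeping the probe set with the highest mean. No filter on level was applied. The 29 arrays of the ERaUtcKO experiment were fitted with limma 3.58.1 (R 4.3.3) with 1 mean for each of 10 groups, 19 residual degrees of freedom and Benjamini-Hochberg adjustment over all genes. The difference between knockout lines used 54 arrays. The 12 arrays have no batch in the sources used here, and the number of arrays limits the precision. The fit was tested on simulated data. With no interaction set, 0 of 30142 genes were called. Of interactions set at 0.5, 1 and 2 on the log2 scale, 13 of 67, 55 of 67 and 65 of 66 were called. Small interactions can therefore go uncalled.

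Replicate numbers did not pair the samples, since deviations of same-numbered arrays correlated at -0.27 to 0.20, over 0.1 for 3 of 18 pairs. Genes were named by a rule: the 10 largest interactions on each side, up to 4 of each kind that were kept, or were called in ERaUtcKO and not, or oppositely, in littermates, genes of the ERα and IGF1 pathways, and up to 4 members of a list. Other list members, Pparg, the miRNA genes and the IGF1 comparison were chosen after their values were seen. Members, lists and tests were chosen with earlier results of these data known. Alternatives were the 12 arrays alone, a replicate block, centring, quantile normalization, a level of at least 5, the mean of probe sets, a trended robust variance, and each array left out.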

Additional observations from a re-analysis of the deposited data

Results flagged for a closer look

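The E2 response differed between ERaUtcKO and littermates, by the interaction test in limma, for 4154 genes, and the named ones stand in the report. Among these, some were called as changed in ERaUtcKO and not, or oppositely, in littermates. The interactions were 1.69 for Slc13a5, 1.16 for F2r, 0.73 for Tnfrsf21, 0.91 for Nampt, -0.41 for Zscan18, -0.40 for Gabra4 and 1.44 for Tsc22d3. For Zbtb16, which rose in both genotypes and more in ERaUtcKO but fell in C57Bl6 wild types (-0.55), it was 2.67. The interactions of F2r, Tnfrsf21, Nampt, Tsc22d3 and Zbtb16 were also called above 0 in Ex3aERKO. In littermates Gabra4 lay at the level of the control probe sets, where a fall could have been hidden. Greb1 was the gene whose interaction differed between the 2 knockout lines, by 2.08, less negative in ERaUtcKO than in Ex3aERKO. Groups of 3 arrays were not tested for single outlying samples.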

How the results depend on the processing

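With single arrays left out, the interaction was called for 3369 to 4955 genes, at 2-fold or more for 676 to 853 below 0 and 380 to 488 above, the littermate response for 7813 to 10990 and the ERaUtcKO response for 49 to 170. For the C57-chosen genes the called interactions ran from 766 to 805 and from 451 to 494, the littermate medians from 1.29 to 1.36 and from -1.08 to -1.03, and the ERaUtcKO medians from 0.16 to 0.22 and from -0.20 to -0.12. The ERaUtcKO response was called for 51 genes in the fit to 12 arrays, with fewer residual degrees of freedom. The difference between lines was called for 1 to 4 genes with 1 array left out, and for 2 with a replicate block and 2 with a level of at least 5. Choosing C57 genes at 4-fold, a smaller set by construction, gave 263 and 77 called interactions, littermate medians of 2.17 and -1.91 and ERaUtcKO medians of 0.32 and -0.29. With the replicate block the interaction was called for 3978 genes, 3922 of them also without it. Centring moved the median littermate response of all genes from -0.10 to 0.01 and the share of rises among called littermate responses from 42.3% to 61.6%, and the share of interactions above 0 from 48.6% to 31.9%. Signs turned only for interactions near 0 that were not called. Esr1 went to 0.17 with quantile normalization and, with 1 array left out, ran from -0.10 to 0.055. Over the same fits Hdc ran from -0.30 to 0.20, Mybpc1 from -0.010 to 0.36 and Igf1r from -0.025 to 0.24. The cause was not tested. Of 103 named genes tried under 19 alternatives, 19 changed a call or a sign under at least 1. Calls were lost in some fits without 1 array for Vegfd and Zscan18 (9 of 12 fits each), Stc1 (8), Tnfrsf21 and Lmod1 (7 each), Btc and Srebf2 (6 each), Cnn1 (5), Ptgis (4), Pdk4 (3), Col1a2 (2) and Slc13a5 (1), and gained for Scnn1a and Tcea3 (1 each). Pdk4 lost its call without littermate vehicle replicate 1, littermate E2 replicate 1 or ERaUtcKO E2 replicate 2, and Col1a2 without ERaUtcKO vehicle replicate 3 or E2 replicate 2. With the replicate block Tnfrsf21 (adjusted p = 0.0517) and Zscan18 (0.0646) were not called.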
